A study of Homo sapiens with 24 samples.

Results

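This report describes baseline splicing in HCT116 cells, a human colorectal carcinoma line, that carried the Y36C form of PHF5A, compared with the same line carrying wild-type (WT) PHF5A, when neither received a splicing modulator. All 6 Y36C and all 6 WT samples kept in the vehicle DMSO for 6 h were compared, 12 of the 24 samples of the series. The other 12 were 6 WT and 6 Y36C samples given E7107, a pladienolide derivative that binds the SF3b complex, for the same time, and they serve here only as samples that the baseline comparison did not use. In both groups the PHF5A cDNA was added with a lentiviral vector, so the cells also held their own PHF5A gene. Each genotype was 1 engineered line, so the amino acid change and any other difference between the lines cannot be told apart. The study's methods describe 6 treatments per group before lysis, and nothing in the sources used here says that these were separate passages or days, so the p-values measure the spread between these samples.

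PHF5A is a small zinc finger protein of SF3b, the part of the U2 snRNP that holds the branch point adenosine of the intron while the spliceosome forms. Tyrosine 36 lies beside SF3B1 in the pocket that takes the branch point adenosine and the splicing modulators. When an intron's branch point or 3′ splice site is used poorly, the intron can stay in the transcript, the neighbouring exon can be skipped, or a nearby 3′ site can take over.

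PolyA RNA was sequenced, and the deposited value for each junction end is its percent spliced in (PSI), the share of that junction among all reads at the same splice site. An exon-intron boundary counted as a junction of its own, so a higher boundary PSI means more unspliced RNA at that site. Of 1823643 junction ends used, 588841 were boundaries and 1234802 were spliced junctions. A site was usable where it had reads in all 12 DMSO samples, which held for 254719 of 636130 listed sites. Sites with reads numbered 337517 to 340081 in the WT and 336249 to 338547 in the Y36C DMSO samples. The values are percentages without read numbers, so the depth behind each is unknown and no counting interval can be given. Of 10 colon epithelial marker genes, 7 had at least 1 site read in all 12 samples, against 1 of 6 fibroblast (COL1A1, at 95 of 96 sites), 1 of 5 leukocyte (CD68) and 0 of 3 endothelial marker genes. The part of any other cell type in the results was not tested.

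These 6 sequences are shown first because the largest or tightest baseline changes lay in them. They were read from the GRCh37 (hg19) genome on the transcribed strand. The first 4 are whole introns at which a larger share of reads crossed a boundary in the Y36C cells, with the first and last 2 intron bases in capitals: intron 18 of 22 of MAN2A2 at chr15:91456637-91456843 (plus strand, 207 bases), intron 20 of 24 of TUBGCP6 at chr22:50657327-50657496 (minus strand, 170 bases), intron 5 of 7 of ARFRP1 at chr20:62333253-62333487 (minus strand, 235 bases) and intron 5 of 5 of LGALS3BP at chr17:76968787-76969051 (minus strand, 265 bases). All 4 lie within coding sequence. In TUBGCP6 and ARFRP1 the called ends lay at the 3′ site alone, and retention of the whole intron was not tested there.
MAN2A2: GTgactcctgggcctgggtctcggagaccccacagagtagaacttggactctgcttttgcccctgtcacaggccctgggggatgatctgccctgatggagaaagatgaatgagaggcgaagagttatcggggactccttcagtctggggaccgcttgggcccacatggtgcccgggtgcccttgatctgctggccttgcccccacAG
TUBGCP6: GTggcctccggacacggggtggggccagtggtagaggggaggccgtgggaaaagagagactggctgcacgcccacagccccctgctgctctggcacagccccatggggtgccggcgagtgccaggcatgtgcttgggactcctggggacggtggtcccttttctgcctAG
ARFRP1: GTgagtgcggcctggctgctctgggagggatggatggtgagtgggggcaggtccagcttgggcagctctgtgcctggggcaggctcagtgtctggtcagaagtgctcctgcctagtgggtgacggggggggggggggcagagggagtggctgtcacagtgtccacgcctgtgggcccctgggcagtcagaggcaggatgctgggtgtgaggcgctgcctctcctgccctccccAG
LGALS3BP: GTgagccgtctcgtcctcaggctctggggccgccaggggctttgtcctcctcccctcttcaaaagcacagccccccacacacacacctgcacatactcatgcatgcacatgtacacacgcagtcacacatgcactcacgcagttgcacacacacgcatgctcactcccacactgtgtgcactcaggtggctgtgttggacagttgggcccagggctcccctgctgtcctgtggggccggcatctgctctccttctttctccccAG

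The next sequence, chr20:25205738-25205850 on the plus strand, holds a pair of competing 3′ sites of ENTPD6, with the last 2 intron bases before each site in capitals. The last one, chr11:66612941-66613063 on the plus strand, is an exon of RCE1 that was skipped more often in the Y36C cells, in capitals, with 30 bases on each side.
ENTPD6: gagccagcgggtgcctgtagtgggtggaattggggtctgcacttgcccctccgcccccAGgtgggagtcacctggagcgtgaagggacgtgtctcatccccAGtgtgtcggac
RCE1: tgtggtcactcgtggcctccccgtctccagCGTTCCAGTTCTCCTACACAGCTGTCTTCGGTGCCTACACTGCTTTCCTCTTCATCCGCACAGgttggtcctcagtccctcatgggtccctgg

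The baseline difference between Y36C and WT cells was small in number and made of several kinds of change. Of 230674 junctions tested, 369 (0.16%) passed an adjusted p of 0.05 in limma fitted to PSI as natural-log odds, 193 higher and 176 lower in Y36C. Joined where they shared a splice site or were ends of 1 junction, their 406 called ends made 267 splicing events in 258 genes. By what the event exchanged, 80 events had higher and 87 lower intron retention in Y36C, 37 had higher and 20 lower exon skipping, 28 used an alternative 3′ site and 3 an alternative 5′ site. An event counted as retention where a boundary had the largest rise at the site or, failing that, the largest fall. Reads of transcripts spliced at another site can therefore enter this class. Among 235 called spliced junctions, 188 were annotated. The median absolute change was 9.33 percentage points and 19 junctions moved by under 2 points, while the median SD over all tested ends was 2.40 points in WT and 2.23 points in Y36C. In 355 of the 369 the groups did not overlap, against 0.977% of all tested ends.

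The called junctions fell into different kinds of measurement. In 114 junctions 1 group stood at exactly 0% or exactly 100% in all 6 samples, and 73 of the 125 called ends of this kind had that constant value in Y36C. Another 161 junctions had PSI above 0 and below 100 in each of the 12 samples, here called graded. Among the 98 events with a graded end, 47 had higher and 11 lower retention in Y36C, 19 had higher and 7 lower skipping, and 13 used an alternative 3′ site. Among the other 169 events, 33 had higher and 76 lower retention, 18 had higher and 13 lower skipping, and 15 used an alternative 3′ site. This split depends on the change itself, since a low boundary that falls can reach 0 and leave the graded kind, so the directions are given as a description. Without read numbers, a listed 0% cannot be told from a low value at few reads.

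**Figure D1:**
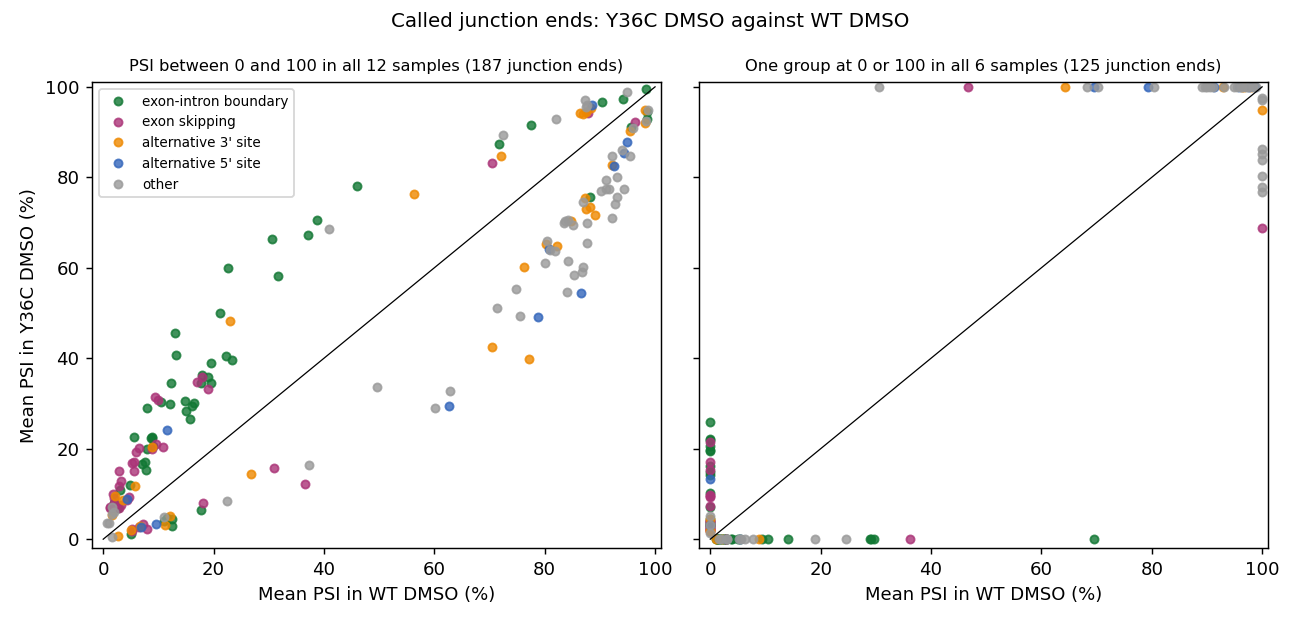
Mean PSI (%) of each called junction end in WT DMSO (horizontal) and Y36C DMSO (vertical), each a mean of 6 samples, coloured by splicing type. The panels hold 125 ends with 1 group at 0 or 100 in all 6 samples and 187 ends with PSI between 0 and 100 in all 12, and the line marks equal values: the first kind lies along the borders of the square, the second at all levels of PSI.

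Rises at an exon-intron boundary, counted as higher retention, made up most of the largest changes named here. MAN2A2, an alpha-mannosidase that trims N-glycans in the Golgi, kept the short intron printed above. The PSI of its 5′ boundary ranged from 18% to 26.2% (median 23.0%) in WT and from 51.3% to 66.7% (median 60%) in Y36C. The means were 22.6% ± 3.09 and 60% ± 5.22 (SD, n = 6 each), and the groups stood far apart (log-odds difference 1.61 ± 0.138 SE, limma adjusted p = 0.000703). At the 3′ boundary of the same intron the mean rose from 30.6% ± 5.81 to 66.5% ± 4.09 (limma adjusted p = 0.00241). The spliced junction, measured against the reads at the same 5′ site, fell from 77.1% to 39.7% (limma adjusted p = 0.00113).

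The other printed introns moved the same way. In TUBGCP6, a subunit of the gamma-tubulin ring complex that nucleates microtubules, the 3′ boundary lay between 8.11% and 17.0% (median 13.4%) in WT and between 31.5% and 55.8% (median 39.9%) in Y36C, means of 13.2% ± 3.25 and 40.8% ± 8.95 (limma adjusted p = 0.0165). In ARFRP1, a small GTPase of Golgi and endosome traffic, the 3′ boundary ran from 4.65% to 10.7% (median 7.76%) and from 23.7% to 35.6% (median 28.3%), means of 7.88% ± 2.64 and 29.0% ± 5.15 (limma adjusted p = 0.00851). LGALS3BP, a secreted glycoprotein that binds galectins, lies outside the rule for named genes and was chosen after its values were seen, for its small spread. Its last intron's 3′ boundary ran from 8.40% to 10.2% (median 8.68%) in WT and from 20.4% to 23.6% (median 22.7%) in Y36C, means of 8.89% ± 0.692 and 22.4% ± 1.15 (limma adjusted p = 0.00157). In none of these introns did the lowest Y36C sample reach down to the highest WT sample.

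RPL34, a protein of the large ribosomal subunit, showed more reads across the 5′ boundary of its intron at chr4:109546410-109551176, which is not within coding sequence. Values ran from 31.7% to 50% (median 37.5%) in WT and from 65.5% to 73.3% (median 70.9%) in Y36C (limma adjusted p = 0.00582). The junction at this intron is classed as an alternative last exon, and whether the boundary reads are retention of the whole intron was not tested. SLC41A3, of a family of magnesium transporters, rose at a 3′ boundary from a range of 5.80% to 24.0% (median 12.7%) to one of 35.8% to 57.4% (median 43.5%; limma adjusted p = 0.0331). KCTD13, an adaptor of the CUL3 ubiquitin ligase, spliced its intron at chr16:29918430-29922298 less: 70.5% to 88.9% (median 78.6%) in WT and 42.9% to 58.3% (median 46.3%) in Y36C (limma adjusted p = 0.0332). ADAM11, a neuronal adhesion protein of the ADAM family, was read across a 3′ boundary at 0% to 7.69% (median 0%) in WT and at 12.5% to 31.3% (median 25.4%) in Y36C (limma adjusted p = 0.0155 with a filter that does not use the groups, PSI above 0 in at least 6 of any 12 samples). FOXRED1, an assembly factor of respiratory complex I, rose at a 5′ boundary from 6.25% to 14.9% (median 10.5%) to 19.2% to 34.5% (median 32.2%; limma adjusted p = 0.0446). In TSC2, the GTPase-activating partner of TSC1, the spliced junction at chr16:2127728-2129032 fell at its 3′ site from 29.0% to 44.1% (median 37.9%) in WT to 12.5% to 21.1% (median 15.7%) in Y36C (limma adjusted p = 0.0316). The groups did not overlap in any of these 6 genes, though their spread within a group was wider than in LGALS3BP.

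Further boundary rises of this size lay in genes whose reads can be shared with near copies or overlapping genes. A 3′ boundary shared by the annotations of BRD9, of the non-canonical BAF complex, and ZDHHC11, a palmitoyltransferase family member, rose from a mean of 46.1% to 78.1% (limma adjusted p = 0.0271). CNTNAP3, of the contactin-associated family with close paralogs, rose at a 3′ boundary from 31.7% to 58.1% (limma adjusted p = 0.0239). RNF31, the catalytic subunit of the linear ubiquitin ligase complex, overlaps another annotated gene, and its called 3′ boundary rose from 12.3% ± 2.26 to 34.4% ± 4.98 (limma adjusted p = 0.00453). How the counting split reads between such copies was not given in the sources used here, so these 3 values are uncertain. The boundary shared by BRD9 and ZDHHC11 stayed called in 7 of the 12 fits without 1 sample and had a limma adjusted p of 0.636 with all 24 samples in the fit.

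The introns described next had lower retention in Y36C. PRXL2B, a prostamide and prostaglandin F synthase, spliced an intron at 31.5% to 44.9% (median 43.1%) in WT and at 54.5% to 77.0% (median 71.1%) in Y36C (limma adjusted p = 0.0398). A 3′ boundary shared by GTF2H2B, a copy of a TFIIH subunit gene, and an unnamed gene fell from 23.1% to 44.4% (median 33.3%) to 0% to 9.09% (median 0%; limma adjusted p = 0.0396 with the filter that does not use the groups). PPARD, a lipid-activated nuclear receptor chosen after its values were seen, fell at a 5′ boundary from a mean of 5.03% to 1.2% (limma adjusted p = 0.00985).

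Exon skipping rose in more genes than it fell. RCE1, the protease that trims prenylated CAAX proteins, included the 63-base exon printed above at 81.2% to 86.9% (median 84.0%) in WT and at 49.7% to 64.9% (median 52.8%) in Y36C, means of 84.0% ± 1.89 and 54.6% ± 5.75 (limma adjusted p = 0.0013). From the same 5′ site, the junction that skips the exon rose from 8.06% to 11.7% (median 9.86%) to 20.6% to 36.3% (median 32.0%; limma adjusted p = 0.00422). Inclusion and skipping at this site thus moved in opposite directions, and neither overlapped between the groups.

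CBX6, a chromobox protein of Polycomb repressive complexes chosen after its values were seen, skipped its 44-base exon at chr22:39267907-39267950 at 4.54% to 9.24% (median 5.25%) in WT and at 17.0% to 21.6% (median 18.9%) in Y36C, means of 5.90% ± 1.72 and 19.3% ± 1.89 (limma adjusted p = 0.00371). ARHGEF10, a guanine nucleotide exchange factor, likewise chosen after its values were seen, rose at a skipping junction from a mean of 6.56% to 20.1% (limma adjusted p = 0.012). Skipping in TAF1C, a subunit of the RNA polymerase I factor SL1, rose from a mean of 1.85% to 10% (limma adjusted p = 0.00496). An inclusion junction fell in SLMAP, a tail-anchored membrane protein, from 65.3% to 79.6% (median 70.2%) to 47.5% to 55.3% (median 51.0%; limma adjusted p = 0.0416). CDCA2, a mitotic regulator of protein phosphatase 1 also chosen after its values were seen, went the other way, with a skipping junction at 8.02% in WT and 2.31% in Y36C (limma adjusted p = 0.0154).

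An exchange of 3′ sites set the class of 28 events. ENTPD6 and STX10 are described here too, though their events are counted with those of higher retention. ENTPD6, a nucleoside diphosphatase of the secretory pathway, has the 2 acceptor sites printed above, 43 bases apart. The upstream site took 20.3% to 25.2% (median 23.4%) of reads from the shared 5′ site in WT and 44.4% to 52.1% (median 47.7%) in Y36C, means of 23.0% ± 1.97 and 48.3% ± 2.96 (limma adjusted p = 0.00168). The downstream site fell from a mean of 70.5% to 42.6% (limma adjusted p = 0.00629). In the 20 bases before each site, 80% were pyrimidines at the upstream and 55% at the downstream site. The boundary at the downstream site rose from 37.2% ± 3.14 to 67.2% ± 4.30 (limma adjusted p = 0.00278), but transcripts spliced at the upstream site also cross it, so this value is not retention of the whole intron.

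TAF1C also exchanged acceptors, and the alternative junction at chr16:84218667-84220506 rose from 50% to 66.0% (median 55.7%) in WT to 72.8% to 78.0% (median 76.8%) in Y36C (limma adjusted p = 0.0305). PCBP2, a poly(C)-binding protein chosen after its values were seen, used an unannotated junction to an alternative 3′ site at 2.41% to 2.95% (median 2.77%) in WT and at 0.420% to 0.876% (median 0.700%) in Y36C (limma adjusted p = 0.0128). STX10, a syntaxin of the trans-Golgi network chosen in the same way, used its 90-base intron at chr19:13255301-13255390 at 87.2% to 91.0% (median 88.8%) in WT and at 67.7% to 76.5% (median 70.7%) in Y36C (limma adjusted p = 0.00396). In PCBP2 the change was small in points but wide against the spread within either group.

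**Figure D2:**
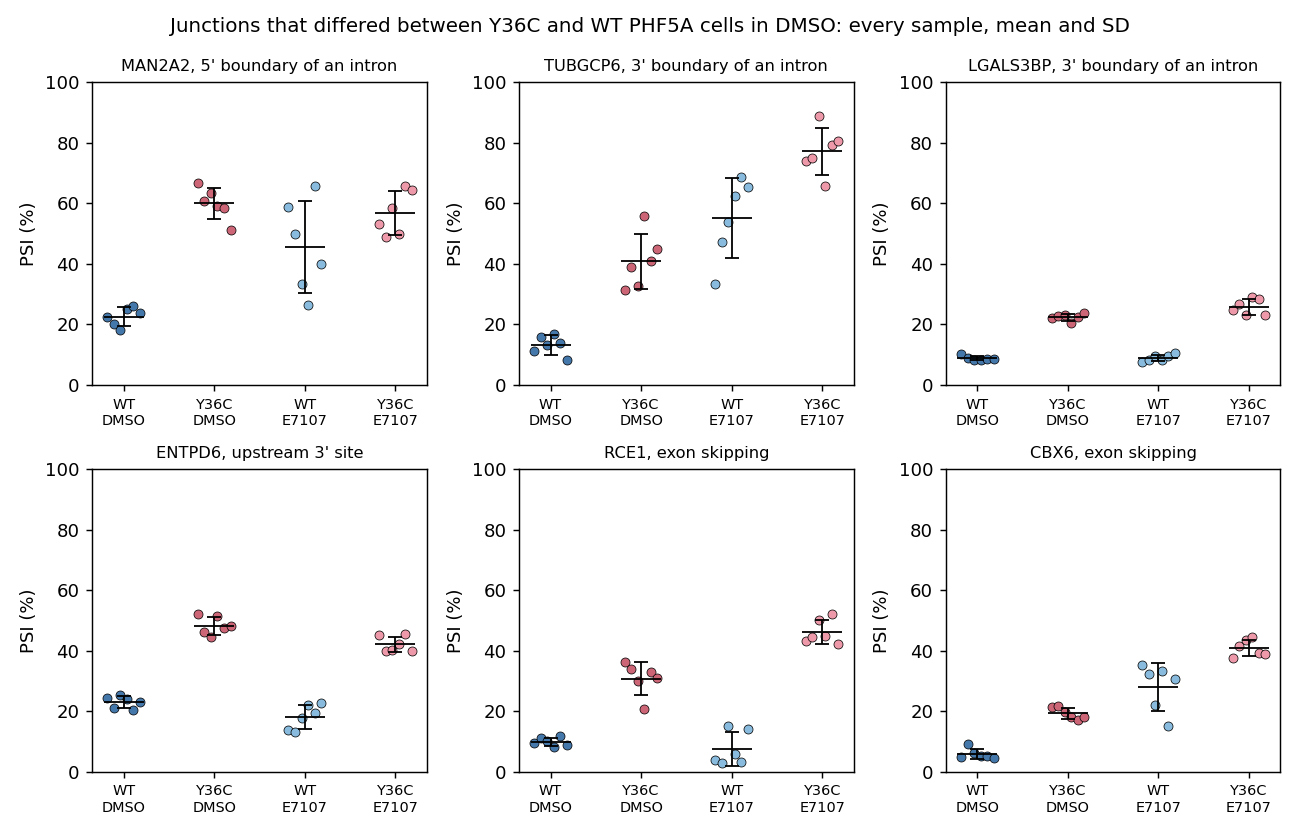
PSI (%) of 6 junctions in every sample of the 4 groups, with points for samples and a dash with bars for the mean and SD of 6 samples (n = 6 per group). In DMSO the Y36C samples lie above all WT samples in MAN2A2, TUBGCP6, LGALS3BP, ENTPD6, RCE1 and CBX6, and the E7107 groups beside them are spaced differently from gene to gene.

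Of the 20 genes with the largest changes under the naming rule (groups that did not overlap, a change of at least 10 points and an SD of at most 10 points in each group), 18 were graded and 2, ADAM11 and GTF2H2B, had samples at 0. By event, 15 had higher and 2 lower retention, 2 had higher skipping and 1 an alternative 3′ site. ENTPD6, where competing 3′ sites changed, is counted among the 15. These values chose the genes and are a description. The remaining members of that group had means of 75.6% and 49.3% (ENSG00000258077, limma adjusted p = 0.0321) and of 36.5% and 12.1% (SLC22A31, of the organic ion transporter family, limma adjusted p = 0.0496). Only MAN2A2, RPL34, ENTPD6, RCE1, TUBGCP6, ADAM11 and ARFRP1 stayed called in each of the 12 fits that left out 1 sample. The other 13 stayed called in 1 to 7 of the 12 fits, each of the 12 samples costing 8 to 12 of the 20 calls when left out, with adjusted p of at most 0.111. With the replicate number in the model, none of the 20 was called (limma adjusted p of 0.101 to 0.381).

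Junctions with 1 group at exactly 0% or 100% made up most of the second list of named genes, those called also when the replicate number entered the model (25 junctions, or 0.0108%, of which 23 were called without it). In 3 of the 23, a spliced junction mirrored a boundary named here at the same site, in FZD5, IKBKE and PHC1, which leaves 20, of which 18 are described here. An end at 0% in 1 group entered the test only through the group above 0. For these ends the limma adjusted p is from the filter that does not use the groups, which called 97 of the 125 ends with a constant group. Of the 125, 85 had a group at 0. Such an end passes that filter too only if all 6 samples of the other group are above 0, so its p is not free of this selection. A constant group has no spread of its own, at an unknown depth. Unspliced reads appeared in Y36C and were listed at 0% in all 6 WT samples at a 3′ boundary of FZD5, a Wnt receptor, where Y36C ran from 12.5% to 19% (median 16.8%; limma adjusted p = 1.14e-05). The same held at a 3′ boundary of IRAK4, a kinase of Toll-like receptor signalling, at 11.1% to 33.3% (median 22.5%; limma adjusted p = 0.000119). It held at a 5′ boundary of IPO11, an importin, at 16.7% to 40.0% (median 22.5%; limma adjusted p = 7.73e-05). A 3′ boundary of IKBKE, an inhibitor of kappa B kinase, lay at 12.5% to 33.3% (median 18.3%; limma adjusted p = 0.000158), and a 5′ boundary of CELSR1, a planar polarity cadherin, at 6.67% to 16.1% (median 9.81%; limma adjusted p = 0.000158).

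The reverse pattern was seen at a 3′ boundary of ARHGAP33, a GTPase-activating protein, which ran from 7.14% to 20% (median 13.8%) in WT and was listed at 0% in all 6 Y36C samples (limma adjusted p = 0.000158). Spliced junctions of RBM25, a splicing regulator (66.7% to 90.0%, median 79.2%; limma adjusted p = 0.000102), IFT172, of the intraflagellar transport complex (66.7% to 90.0%, median 80.6%; limma adjusted p = 9.79e-05), and DLG3, a synaptic scaffold (88.9% to 93.3%, median 91.3%; limma adjusted p = 2.38e-05), were below 100% in WT and at 100% in all 6 Y36C samples. SLC10A7, a membrane protein of the bile acid transporter family, did the opposite at chr4:147363974-147425000, with 100% in WT and 62.5% to 85.7% (median 80.0%) in Y36C (limma adjusted p = 7.31e-05). An alternative 3′ junction shared by the pseudogenes POLR2J4 and UPK3BL3P, whose reads may come from copies, ran from 5.88% to 12.5% (median 8.57%) in WT and was listed at 0% in Y36C (limma adjusted p = 0.000178).

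Skipping of an exon of NAPB, a SNARE recycling factor, was at 0% in all WT samples and at 7.14% to 25% (median 16.0%) in Y36C (limma adjusted p = 0.000339). AFG1L, a mitochondrial ATPase, lost an unannotated skipping junction at chr6:108668244-108677893 that ran from 16.7% to 50% (median 41.7%) in WT and was at 0% in Y36C (limma adjusted p = 0.000351). IGFBP6, which binds insulin-like growth factors, fell from 100% in WT to 50% to 87.5% (median 75%) in Y36C at 1 junction (limma adjusted p = 0.000258).

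The other 4 are given by their means. A 5′ boundary of ENSG00000283782 stood at a mean of 28.9% in WT and 0% in Y36C, an inclusion junction of ENSG00000285635 at 24.6% and 0%, and a junction without a gene at chr5:64803969-64812245 at 19% and 0%. In PHC1, a Polyhomeotic protein, a 5′ boundary had 16.0% and 0.667% (limma adjusted p = 0.0322). PHC1 was the only 1 of these 18 without a constant group, and the only 1 that lost the call in some of the fits without 1 sample: it stayed called in 6 of the 12, with adjusted p of up to 0.0545.

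Some calls stood under several fits. Called both as above and with other offsets, untransformed PSI, a trended prior, each sample left out in turn and the replicate number as a block, with groups that did not overlap, were 15 junctions. All 15 had 1 group at 0 or 100 in all 6 samples, 9 of them at 0, so a call there rests on the spread of the other group alone. All 15 were also called with the filter that does not use the groups, but the 9 pass it only through the group above 0. With the block set aside, 78 junctions stood in the others of these fits, of which 37 had a constant group and 34 were graded. These 34 made 17 events in 18 genes, 10 with higher and 1 with lower retention, 4 with higher and 1 with lower skipping, and 1 with an alternative 3′ site. Among them were MAN2A2, TUBGCP6, ARFRP1, LGALS3BP, RPL34, GPAA1, RCE1, CBX6 and ENTPD6, the last counted with higher retention. GPAA1, a subunit of the GPI transamidase chosen after its values were seen, ran at a 3′ boundary from 10.5% to 13.9% (median 12.4%) in WT and from 23.9% to 36.7% (median 29.6%) in Y36C (limma adjusted p = 0.00969).

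**Figure D3:**
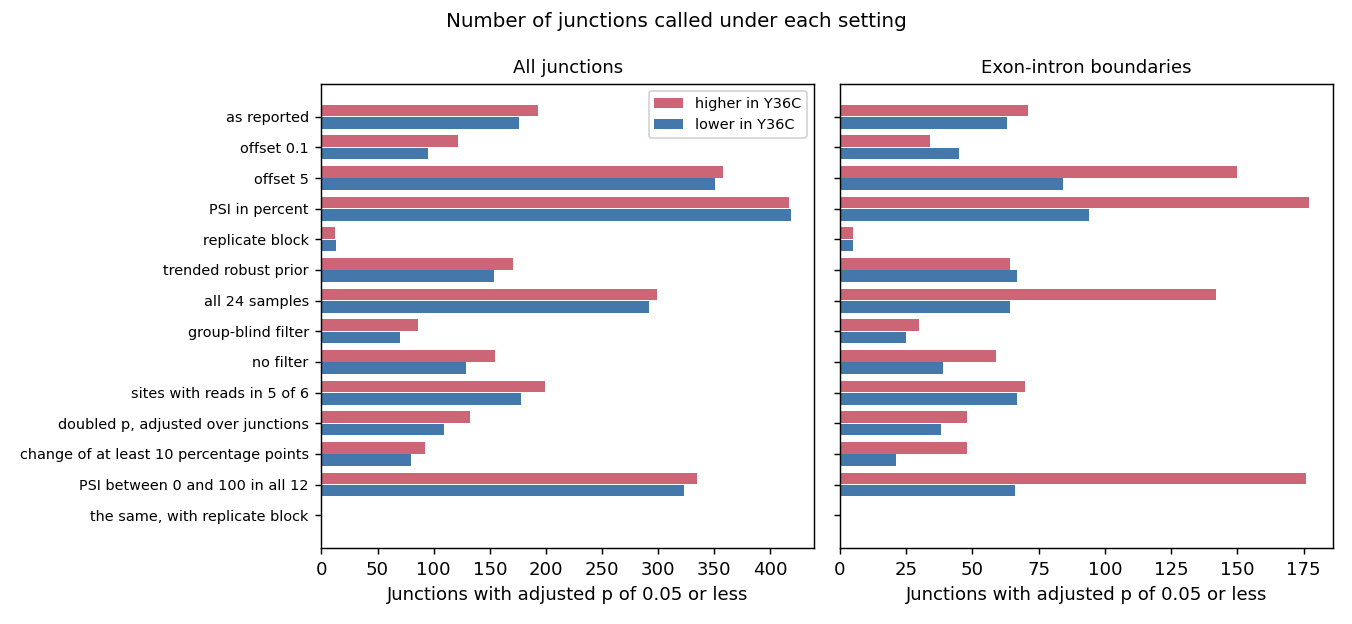
Number of junctions with an adjusted p of 0.05 or less (horizontal axis) under each setting of the fit (rows), higher and lower in Y36C, for all junctions and for exon-intron boundaries alone. Counts of all junctions run from 0 to 835, and the higher and lower bars are of like length for all junctions but not for boundaries, where higher boundaries outnumber lower ones in some settings and not in others.

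A filter that kept only graded ends was chosen after seeing the data, and it drops low boundaries that fell to 0, so the balance of its calls is a description. It called 658 of 118984 junctions (0.553%), 335 higher and 323 lower in Y36C, 161 of them also called above. Of 53681 boundaries tested, 176 were higher (0.328%) and 66 lower (0.123%) in Y36C, whereas 48.4% of all graded boundaries had a positive difference. The main filter gave 71 higher and 63 lower. Other scalings gave 177 and 94 with untransformed PSI, 150 and 84 with an offset of 5 points, 142 and 64 with all 24 samples in the fit, 59 and 39 with no filter, and 34 and 45 with an offset of 0.1 points. Lower boundaries also outnumbered higher ones with a trended prior (64 higher and 67 lower) and without WT replicate 2 (64 and 67), 3 (46 and 51), 4 (58 and 62), 5 (50 and 58) or 6 (56 and 72), so no direction of the boundary calls is given.

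The introns behind the graded boundaries that rose were short and rich in G and C. Their median GC content was 59.6% (quartiles 48.7% to 65.0%) and their median length 413.5 bases, against 51.7% (43.5% to 61.0%) and 848 bases for the boundaries that fell and 51.1% (42.0% to 60.2%) and 772 bases for all tested. At most 200 bases long were 30.7% of the introns that rose, 18.2% of those that fell and 21.3% of all. The median share of pyrimidines in the last 20 intron bases was 75% where boundaries rose, 70% where they fell and 75% over all. These shares describe the called boundaries and were not tested. The printed introns of MAN2A2, TUBGCP6, ARFRP1 and LGALS3BP have a GC content of 60.9%, 68.2%, 68.5% and 60.8%.

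The 2 boundaries of an intron moved together. Of 15857 introns with both boundaries graded and tested, 138 had at least 1 called, and in 133 of these (96.4%) the other boundary had the same sign, against 64.7% of all such introns. Both boundaries were called in 29 introns, 26 of them higher in Y36C and 3 lower, with the same sign in all 29. The boundaries come from the same RNA, so they are not independent.

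Averaged over all boundaries, PSI was slightly lower in Y36C, a call lost in most of the fits that left out 1 sample. The mean PSI of 123347 boundaries at the 5′ end of introns was 8.07% ± 0.167 in WT and 7.84% ± 0.120 in Y36C (difference −0.221 points, exact permutation p = 0.00866, adjusted over 11 classes 0.0317). At the 3′ end it was 9.18% ± 0.175 and 8.95% ± 0.146 over 123629 boundaries (−0.224 points, exact permutation p = 0.0173, adjusted 0.0476). WT replicate 1 stood above the other WT samples, with 8.39% against 7.91% to 8.05% at the 5′ end and 9.53% against 9.08% to 9.13% at the 3′ end, and without it the differences were −0.155 (adjusted exact permutation p = 0.0794) and −0.153 points (adjusted exact permutation p = 0.137). Over all 12 fits that left out 1 sample, the 5′ call was lost in 8 and the 3′ call in 10, with differences of −0.252 to −0.155 and −0.256 to −0.153 points. Both tests were two-sided, and the smallest p that 6 samples against 6 allow is 0.00216.

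The mean was also lower in introns of low GC content. Among the tertile of introns with at most 39.9% GC (82278 boundaries), the WT samples ran from 5.24% to 5.53% and the Y36C samples from 4.94% to 5.16%, without overlap (−0.260 points, exact permutation p = 0.00216, the smallest possible, adjusted 0.0238). Leaving out any 1 sample kept this difference between −0.283 and −0.216 points with an adjusted p of at most 0.0238. In the tertile above 50.1% GC (82274 boundaries) the means were 12.8% and 12.7% (−0.0623 points, adjusted exact permutation p = 0.745). The difference between the high and the low tertile within a sample, a measure added after seeing the data, averaged 7.48 points ± 0.148 in WT and 7.68 points ± 0.157 in Y36C (exact permutation p = 0.0476). Without WT replicate 1 the gap between the groups was 0.251 points (exact permutation p = 0.0195).

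Of the other classes, alternative 3′ sites 4 to 50 bases downstream of the most used site passed, with 1.11% in WT and 1.15% in Y36C over 17082 sites (0.0438 points, exact permutation p = 0.00649, adjusted 0.0317). This call was lost without WT replicate 2 (adjusted exact permutation p = 0.0556) or 6 (0.0524). Alternative 3′ sites at the same distance upstream, the class that SF3B1 hotspot mutations are known to raise, differed by −0.0052 points (adjusted exact permutation p = 0.745), but as log odds by 0.00475 in the opposite direction (adjusted exact permutation p = 0.0278). Annotated exon-skipping junctions differed by 0.0292 points (adjusted exact permutation p = 0.0992), alternative 5′ sites by 0.000554 points (0.978), unannotated junctions by 0.00726 points (0.36; as log odds −0.00329, 0.019) and the 301 boundaries of AT-AC introns, which the minor spliceosome removes, by −0.471 points (0.0992).

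**Figure D4:**
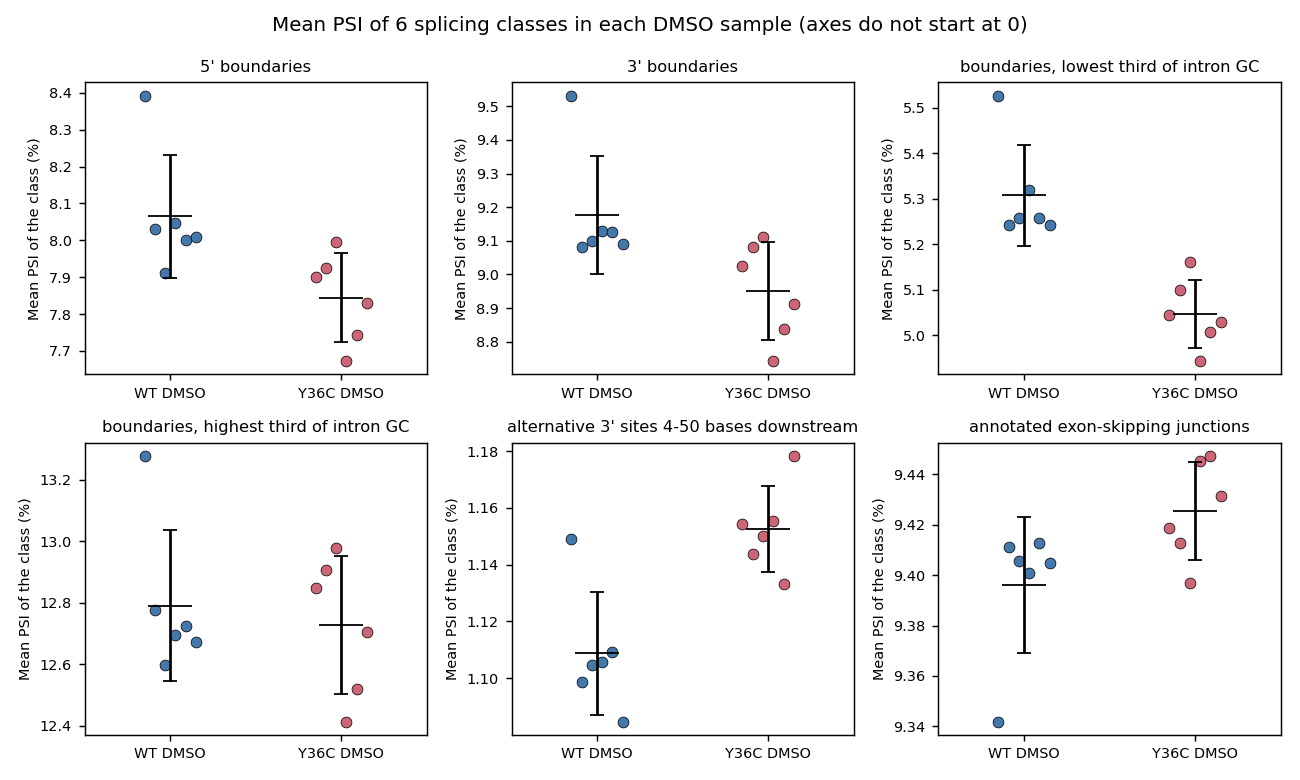
Mean PSI (%) of 6 splicing classes in each of the 6 WT and 6 Y36C DMSO samples (points), with the mean and SD of each group; the vertical axes do not start at 0. The Y36C samples lie below all WT samples for boundaries of introns of low GC content, and overlap with them in the class of high GC content.

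The E7107 samples were made from the same lines and did not enter the baseline fit, so they show whether a difference between the lines was met again. Of the 369 junctions, 260 could be tested in them: 205 (78.8%) had the same direction, 152 (58.5%) were called in that direction and 29 (11.2%) in the opposite one. Over all 177573 junctions tested in both, these shares were 56.0%, 32.6% and 22.9%, in a comparison where 66.8% of junctions were called. Graded calls had the same direction in 128 of 151 junctions (84.8%), and calls with a constant group in 37 of 54 (68.5%). Under E7107 the lines also differ in their response to the drug, which cannot be told apart from the baseline difference in these shares.

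Among the 20 genes with the largest changes, 18 could be tested under E7107, and all 18 had the same direction, 11 of them past the threshold. Over all junctions tested in both, 56.0% had the same direction and 32.6% passed in it. Of the 20 junctions called also with the replicate block, only 5 could be tested. In that list 2 had the same direction and passed the threshold, and 1 passed it in the opposite direction. RCE1 skipping was 7.53% in WT and 46.1% in Y36C under E7107 (limma adjusted p = 1.07e-05). The ENTPD6 upstream site stood at 18.1% and 42.1% (limma adjusted p = 1.37e-05), and the LGALS3BP boundary at 8.91% and 25.8% (limma adjusted p = 1.5e-06), both close to their DMSO levels. The ARHGAP33 boundary had 25.7% and 1.11% (limma adjusted p = 3.2e-05).

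Other baseline differences were smaller in the treated samples, where both groups stood high. The MAN2A2 5′ boundary was 45.7% in WT and 56.8% in Y36C (limma adjusted p = 0.176), the RPL34 boundary 53.5% and 62.6% (limma adjusted p = 0.113), and the ARFRP1 boundary 68.1% and 69.1% (limma adjusted p = 0.858). The TUBGCP6 boundary reached 55.2% and 77.2% (limma adjusted p = 0.00726). IFT172 turned, with 90.4% in WT and 70.4% in Y36C (limma adjusted p = 0.0307). NAPB skipping stood at 20.8% in WT and 1.85% in Y36C, the reverse of the baseline order.

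**Figure D5:**
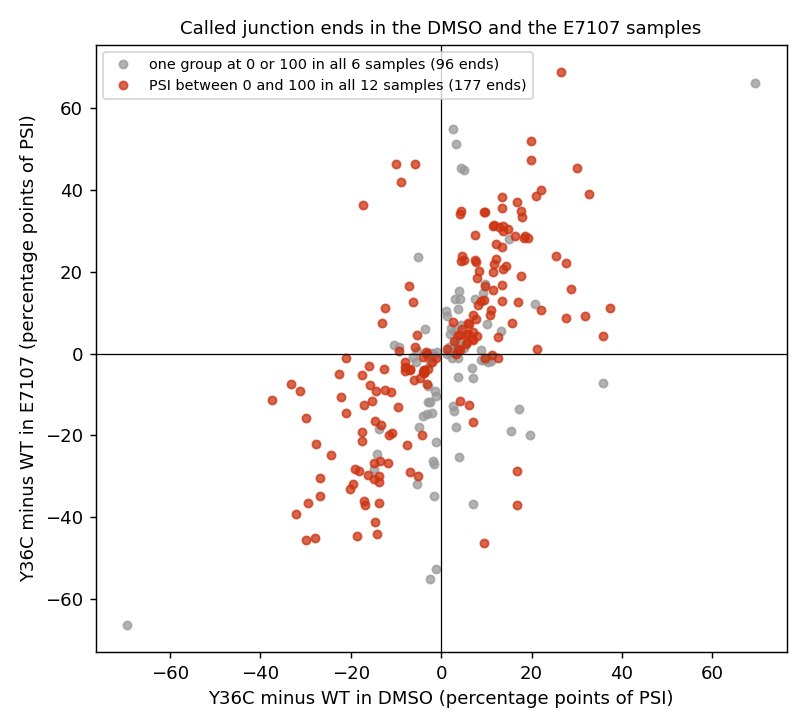
Difference in mean PSI (Y36C minus WT, percentage points) of called junction ends in the DMSO samples (horizontal) and in the E7107 samples (vertical), for 177 graded ends and 96 ends with 1 group at 0 or 100. Of the graded ends, 155 have the same sign in both, in the lower left and upper right of the plot.

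Calls in genes of the splicing machinery were counted against 369 of all 230674 junctions (0.16%) with the main filter. At that share, sets as small as those in this paragraph can hold no call. Whether their shares differ from that of all junctions was not tested. None of 246 junctions tested in 9 SF3a and SF3b genes was called, and the smallest adjusted p in limma was 0.772 over 11 junctions of PHF5A, with 0 at an unadjusted p under 0.05, and 0.430 over 48 junctions of SF3B1, with 3. The 4 boundaries of PHF5A averaged 0.338% in WT and 0.340% in Y36C, and reads of the added cDNA and of the endogenous gene cannot be told apart in spliced junctions. Among 503 junctions of 15 genes for 3′ splice site recognition, 0 were higher and 2 lower. Both were in SF1, the branch point binding protein that acts before the U2 snRNP. Its junction at chr11:64532991-64534663 ran from 6.11% to 6.89% in WT and from 2.05% to 3.12% in Y36C (limma adjusted p = 0.0219), and an inclusion junction fell from a mean of 49.6% to 33.7% (limma adjusted p = 0.0426), a call lost in each of the 12 fits without 1 sample.

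The remaining lists were counted against 193 higher and 176 lower of 230674 junctions. Of 554 junctions in 20 genes known for cryptic 3′ sites in SF3B1-mutant tumours, 2 were higher, at the boundary shared by BRD9 and ZDHHC11 and in ENOSF1, where skipping rose from 1.47% to 6.96% (limma adjusted p = 0.0219). None was called among 323 junctions of SR protein genes, 779 of hnRNP genes, 1145 of core spliceosome genes outside SF3, 196 of BCL2 family genes, 861 of epithelial splicing genes and 524 of nonsense-mediated decay factors. The filter for graded ends called 0.553% of all junctions, and some of its calls were also made by the main filter. It called 2 higher and 3 lower of 334 junctions of the genes for 3′ splice site recognition (DDX46 and SF1). The calls were 0 and 1 of 270 of SR protein genes (SRSF10), 2 and 2 of 639 of hnRNP genes (HNRNPA1 and HNRNPH3), and 1 and 1 of 604 of core spliceosome genes (DHX38). Of 350 junctions of the cryptic site genes, 5 were higher and 3 lower. The median difference of the 9 lists reported here lay between −0.0192 and 0.183 points, and over all genes at 0.112 points.

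The genes the study follows for the drug response did not differ at baseline past the threshold. Of 216 junctions tested in MCL1, CDC25B, RBM5, CDK10 and EIF4A1, 0 were called in limma, against 0.16% of all junctions. At that share a set of this size can hold no call. The smallest limma adjusted p in these genes, in that order, were 0.812, 0.206, 0.218, 0.213 and 0.511. At an unadjusted limma p under 0.05 were 0 of 7, 11 of 47, 8 of 60, 16 of 59 and 2 of 43 junctions, against 13.2% of all junctions. The largest absolute changes in these genes, in the same order, were 0.586, 9.25, 6.31, 26.0 and 18.3 points. MCL1, an anti-apoptotic BCL2 family member, skipped its exon at 1.08% ± 0.69 in WT and 0.80% ± 0.56 in Y36C, and the boundary at 1 of its 3′ sites had 2.75% and 2.74%. The same measures were 32.5% and 2.83%, and 58.9% and 3.71%, in the WT and Y36C cells given E7107. For MCL1 under E7107 the study describes retention as dominant in WT and mainly skipping in Y36C, from plots of reads and a PCR assay. The shares of reads at a splice site given here are another measure, and how they relate to that account was not tested.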

How the data were processed

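PolyA RNA from the samples was sequenced, and reads were aligned with STAR to hg19 per the labels and the study's methods. From the junction counts the authors computed PSI, deposited as a percent of all reads at a splice site. Depth per sample is unknown. Of 1830076 listed ends per sample, 6433 (mitochondrial or without a strand) were left out. Junctions were annotated with GENCODE version 44 lifted to GRCh37. Ends were tested where the site had reads in all 12 DMSO samples and every sample of 1 group or both had a PSI over 0, with limma 3.58.1 (R 4.3.3) on natural-log odds with an offset of 1 point, with Benjamini-Hochberg adjustment over 361441 ends; a junction took its end with the smaller p. Class means were compared by two-sided exact permutation (scipy 1.17.1, numpy 2.4.6, pandas 2.3.3, Python 3.11.15). Sequences were read with pysam 0.24.0. The script was tested on simulated data. The members and gene lists were chosen with earlier results of these data known. Genes were named if called also with the replicate block, or as the 20 genes with the largest non-overlapping change (at least 10 points, SD at most 10 points), or if the study names them; PHF5A and SF3B1 were always named. Some genes that met the rule are not reported here. The tools' settings were varied as the closing section gives.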

Additional observations from a re-analysis of the deposited data

Results flagged for a closer look

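The baseline difference between Y36C and WT (log odds of PSI) was not the same under E7107 in 12 of the 24 named junctions where the interaction of genotype and treatment could be tested, against 55.8% of all junctions. The interaction (E7107 minus DMSO, limma adjusted p in brackets) was −4.96 in IFT172 (2.52e-06), −4.59 in NAPB (0.000973), −2.79 in DLG3 (6.35e-06), −1.46 in ARFRP1 (2.16e-05), −1.15 in MAN2A2 (0.00308), −0.944 in RPL34 (0.00158) and −0.791 in PRXL2B (0.0339). It was 3.96 in CNTNAP3 (1.12e-05), 1.55 in TAF1C (1.24e-07), 1.26 in FOXRED1 (0.00248), 0.959 in RNF31 (0.0149) and 0.729 in ENTPD6 (0.00419).

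A sample stood far from the other 5 of its group in 10 of 98 groups checked, where chance gives about 1 in 20. Among named junctions these were Y36C samples at 4.00% in PHC1, 65.5% in RPL34 and 19.2% in FOXRED1, and a WT sample at 7.69% in ADAM11. Among the class means they were all WT samples: 8.39% for boundaries at the 5′ end of introns, 9.53% at the 3′ end, 9.34% for annotated exon skipping, 7.36% for 3′ sites 3 bases apart, 5.53% for introns of low and 13.3% for introns of high GC content.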

How the results depend on the processing

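Of 369 junctions (134 boundaries, 38 exon skipping, 54 alternative 3′, 27 alternative 5′, 116 other), the counts were, in that order of types, 217 (79, 24, 25, and other 70) with an offset of 0.1 points, 709 (234, 95, 102, 42, 236) with 5 points, 835 (271, 121, 115, 51, 277) with PSI in percent, 591 (206, 65, other 205) with all 24 samples, 156 (55, 16, 20, 11, 54) with PSI above 0 in 6 of any 12 samples, 241 (86, 24, other 70) with p doubled for the 2 ends, 172 (69, 16, 19, 8, 60) with a change of at least 10 points, and 658 (242, 88, other 210) with graded ends alone, added after seeing the data. Types not given stayed within 1.5 times.

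Replicate numbers are shared by the groups. In PSI, same-numbered samples did not deviate together (correlations of −0.00148 to 0.00421, 0 of 6 samples closest to their own number), so no pairing of PSI values was shown. The number of splice sites with reads did go together by replicate number (correlation 0.955, permutation p = 0.0264). What the numbers mark is not stated in the sources used here. Replicates 1 and 2 had the most sites with reads in both groups (339964 and 340081 against at most 338034 in WT, 338436 and 338547 against at most 337130 in Y36C), and the part of this in the results was not tested. With the replicate block 25 junctions (0.0108%; 10, 4, 1, 1, 9) were called, 23 of them called without it. With graded ends and the block, limma called 0 junctions (0, 0, 0, 0, 0), with 15951 of 118984 at an unadjusted p under 0.05 and a smallest adjusted p of 0.105. The block left the class differences at −0.221 (exact sign-flip adjusted p = 0.229) for 5′ and −0.224 (0.229) for 3′ boundaries, 0.0438 (0.172) for downstream 3′ sites and −0.26 (0.172) for introns of low GC content. This test has only 64 sign patterns. In the last 2 classes all same-numbered differences had the same sign, so their p before adjustment was the smallest possible. The sign-flip test therefore cannot decide on these 2 classes.

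Without 1 sample the counts ran from 261 to 335 (boundaries 87 to 131, skipping 27 to 40, alternative 3′ 33 to 46, alternative 5′ 14 to 27, other 84 to 109). Below the 1.5-fold range were 87 boundaries without Y36C replicate 3, 33, 35 and 35 alternative 3′ sites without Y36C replicates 1, 2 and 3, and 15, 17 and 14 alternative 5′ sites without Y36C replicates 1, 2 and 6. Class differences ran from −0.252 to −0.155 points (5′ boundaries), −0.256 to −0.153 (3′), 0.0184 to 0.0349 (skipping), 0.0387 to 0.0518 (downstream 3′ sites), 0.0334 to 0.0935 (3′ sites 3 bases apart) and −0.283 to −0.216 (low GC).

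Over ends with a mean PSI of 5 to 95, the class differences were −0.305 (adjusted exact permutation p = 0.421) and −0.256 (0.476) for 5′ and 3′ boundaries, 0.257 (0.0476) for skipping, 0.583 (0.0714) for downstream 3′ sites and 0.400 (0.0238) for unannotated junctions. As log odds, upstream 3′ sites turned to 0.00475 (0.0278) and unannotated junctions to −0.00329 (0.019). The cause was not tested. Of 40 junctions that met the naming rule none reversed. The call was kept by 39 with an offset of 5, 37 with a trended prior, 33 with PSI in percent, 29 with all 24 samples and 26 with an offset of 0.1. Without 1 sample, 346 of 480 calls held. The 20 called with the block were named for that call, and none of the other 20, those with the largest changes, kept it (limma adjusted p of 0.101 to 0.381). Read depth is unknown, which limits every value at 0 or 100.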
